A study of Rhipicephalus microplus with 8 samples.

Results

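Larvae and nymphs of the cattle tick Rhipicephalus microplus were each compared with a group coded S, and the transcripts that both stages shared against S were separated from those in which a single stage differed. Every probe with a value in both of the authors' deposited tables of a stage against S was taken, matched by probe name, which gave 10695 of the 13459 probes listed. The remaining 2764 probes had no value in these tables. The table of S against nymphs was given the opposite sign, so that every log2 fold change below reads stage minus S, and a positive value means higher in the stage than in S.

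The series measured transcript levels on 8 two-colour arrays, 4 of larvae collected on day 4 after infestation and 4 of nymphs collected on day 7. Both stages were whole ticks of mixed sex and of the Mozambique strain, fed on Holstein-Friesian cattle, with 2 biological replicates per stage and 2 arrays per replicate. Tick RNA carried Cy5 on every array. A common pool of the same strain carried Cy3, made from mixed-sex ticks of days 4, 5, 7, 13 and 15 and from tissues of adult females of day 20, and no dyes were swapped. The labels do not say what S is, nor what the other coded groups G and O are, and no array of S, G or O was analysed here. The letters would fit salivary gland, gut and ovary, organs often dissected from feeding female ticks, but no label ties the codes to them and none is assumed. If S is a dissected organ, the stage of the tick and the content of tissue cannot be told apart in a comparison of whole larvae or nymphs with S. In whole ticks, fewer cells of a type and less RNA per cell cannot be told apart either.

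The cattle tick stays on 1 animal from larva to adult, and each active stage attaches, takes blood and, before the adult stage, moults into the next. Larvae and nymphs both build a new cuticle, digest host blood and secrete saliva, so a whole tick carries transcripts of all of these tissues at once. Female salivary glands secrete cement and proteins that act on the blood clotting and immunity of the host, the gut takes up and digests the blood meal, and the ovary fills eggs with yolk. Probes on this array were named by assembled contig or by expressed sequence tag. The files pair these names with no gene, and 0 of them matched the gene table of the USDA_Rmic assembly, so no function, genome position or sequence is given. No check by tissue markers could be made for the same reason.

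Levels are given as log2 of tick over pool, so a level of 1 is 2-fold above the pool and a level of −1 is 2-fold below it. A level compares the same probe between groups and says nothing about the abundance of one transcript against another. The level of S was obtained as the mean of the larva arrays that the authors used minus the deposited larvae minus S value. The nymph arrays and the nymph table gave the same level to within 1.8e-08. It has no error of its own, and the spread of S is known only through the deposited adjusted p-values. Both stages were set against the same S arrays, so the 2 comparisons are not independent and a high or low S enters both. The difference between larvae and nymphs is free of S, and it was tested on the larva and nymph arrays themselves.

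Over all members, the authors' deposited tables put the median of larvae minus S at 0.01 on the log2 scale and that of nymphs minus S at −0.01. The middle part of the members lay between −0.48 and 0.51 for larvae and between −0.48 and 0.47 for nymphs, from the first to the third quartile. At an adjusted p under 0.05 and at least a 2-fold difference, larvae were higher than S in 1182 members (11.1%) and lower in 1032 (9.65%) in the authors' deposited table. By the same rule nymphs were higher than S in 1126 members (10.5%) and lower in 977 (9.14%) in the authors' deposited table. The sizes were wider in larvae: at least 16-fold, larvae were above S in 87 members and below in 27, and nymphs were above S in 32 and below in 12, in the authors' deposited tables. The SD over members was 1.06 for larvae minus S and 0.94 for nymphs minus S. The difference in width was not tested.

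The members were sorted into 8 patterns. A pattern shared by both stages required an adjusted p under 0.05 and at least 2-fold in the same direction in both of the authors' deposited tables. A pattern of a single stage required that stage to pass both rules, the other stage to have an adjusted p of at least 0.05, and the deposited comparison of larvae with nymphs to have an adjusted p under 0.05. The remaining patterns held members at least 2-fold from S on opposite sides. In this sorting 468 members (4.38%) were above S in both stages and 587 (5.49%) below S in both. Larvae alone were above S in 392 members (3.67%) and below in 150 (1.40%), while nymphs alone were above S in 356 (3.33%) and below in 151 (1.41%). The stages lay on opposite sides of S in 8 members with larvae above and in 24 with nymphs above.

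The other 8559 members fell in no pattern. Over all 10695, neither stage passed the adjusted p in 3224 members, only larvae passed in 2202 and only nymphs in 1912, in the authors' deposited tables. A further 3103 passed for both stages in the same direction, 1310 above S and 1793 below, and 254 in opposite directions. Besides the members of the shared patterns, 1192 of the 3103 were under 2-fold in both stages, 480 reached 2-fold in larvae but not in nymphs, and 376 reached it in nymphs but not in larvae. The rule on larvae against nymphs kept 62 members that were at least 2-fold from S only in larvae, and 67 only in nymphs, out of the single-stage patterns. At the threshold itself, the smallest folds with an adjusted p under 0.05 were 1.18 for larvae above S and 1.21 for nymphs above S, and 31 members for larvae and 26 for nymphs were at least 2-fold from S without passing the adjusted p.

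**Figure D1:**
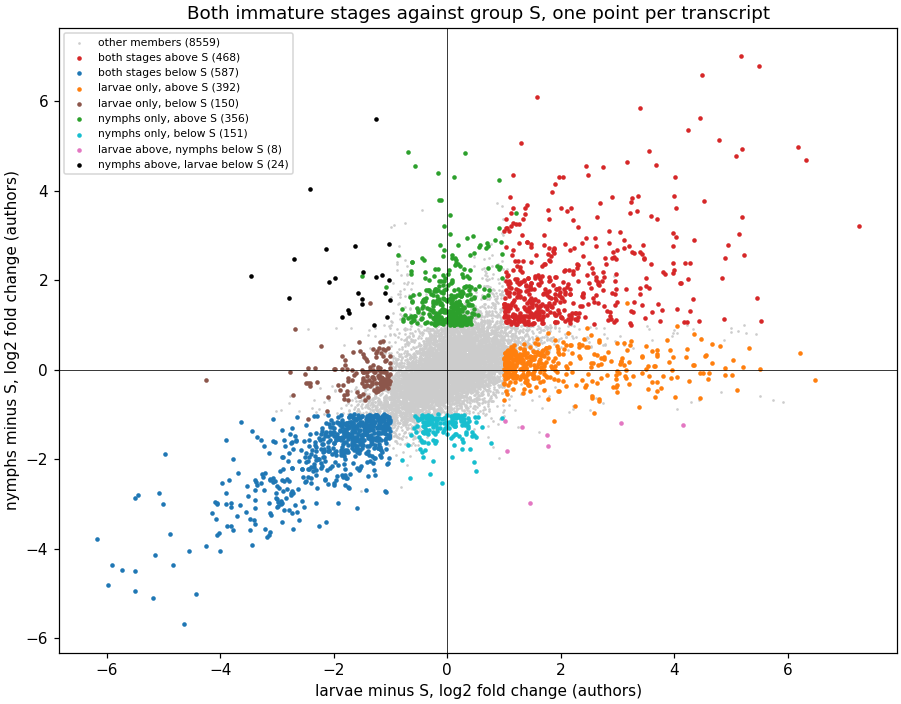
Larvae minus S (x axis, log2 fold change) against nymphs minus S (y axis, log2 fold change) of all 10695 members from the authors' deposited tables, coloured by pattern. The 468 members above S in both stages lie upper right and the 587 below S in both lie lower left, while members of a single stage lie along an axis. Both axes use the same S arrays, so the spread along the diagonal includes whatever S itself contributed.

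Transcripts above S in both stages formed a group of 468. Their median was 1.81 (log2) for larvae minus S and 1.75 for nymphs minus S in the authors' deposited tables, against 0.01 and −0.01 over all members. Both stages were at least 4-fold above S in 103 of them, at least 8-fold in 30 and at least 16-fold in 11. The larger of the 2 differences was that of larvae in 263 and that of nymphs in 205. Median levels were 0.93 in larvae, 0.74 in nymphs and −1.05 in S. S lay below the pool in 454 of the 468, which were chosen for a low S, and in 5461 of all 10675 joined members. Every larva and nymph array that the authors used lay above the level of S in 467 of the 468, and in 2145 of all 10675 members joined to the value table. The pattern had required both stage means to be at least 2-fold above S on the same arrays, so the count of 467 is a description.

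Among probes with all 8 arrays, the largest shared increase by the smaller of its differences was that of Contig4049. Its level was 3.29, 3.49, 2.73 and 2.69 on the larva arrays and 5.03, 4.80, 4.83 and 4.84 on the nymph arrays, against −2.13 in S. All nymph arrays were above all larva arrays, and all 8 were far above S. In the authors' deposited tables larvae were 36.1-fold and nymphs 128-fold higher than S. Larvae were below nymphs by −1.83 (log2, SE 0.29; limma, adjusted p = 0.0144). This call was lost when larva replicate 1 or 2 was left out, and after quantile normalisation.

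Contig1924 came next, at 3.31, 3.13, 2.72 and 3.00 on the larva arrays and 2.79, 2.83, 2.83 and 2.62 on the nymph arrays, against −2.15 in S. The larva and nymph arrays overlapped. In the authors' deposited tables larvae were 36.6-fold and nymphs 30.3-fold higher than S. The difference of 0.27 between larvae and nymphs (log2, SE 0.23) did not pass the test (limma, adjusted p = 0.456).

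Transcripts below S in both stages were the largest group, with 587 members. Their median was −1.78 (log2) for larvae minus S and −1.58 for nymphs minus S in the authors' deposited tables. Both stages were at least 4-fold below S in 143, at least 8-fold in 39 and at least 16-fold in 11. The larger decrease was that of larvae in 371 and that of nymphs in 216. Median levels were −1.41 in larvae, −1.27 in nymphs and 0.39 in S. S lay above the pool in 355 of the 587, which were chosen for a high S, and in 5214 of all 10675 joined members. Every larva and nymph array that the authors used lay below S in 579 of them, and in 2467 of all 10675 joined. As above, the pattern had been chosen on the same arrays, so the count of 579 is a description.

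The largest shared decreases, ranked in the same way, were those of Contig7002 and Contig6867. On the larva arrays Contig6867 lay at −4.61, −4.43, −3.54 and −3.43, and on the nymph arrays at −3.33, −3.57, −3.77 and −3.12, against 1.504 in S. The stages overlapped and both lay far below S. In the authors' deposited tables larvae were 45.4-fold and nymphs 31.0-fold lower than S. The G level of 1.41 was close to that of S.

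Contig7002 lay at −3.12, −3.27, −2.77 and −3.28 on the larva arrays and at −2.76, −2.74, −3.31 and −3.31 on the nymph arrays, against 2.07 in S. In the authors' deposited tables larvae were 36.2-fold and nymphs 34.2-fold lower than S. Larvae and nymphs differed by −0.08 (log2, SE 0.27), which did not pass the test (limma, adjusted p = 0.852). Its level was −0.63 in G and −1.23 in O, so S stood above both other coded groups as well.

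**Figure D2:**
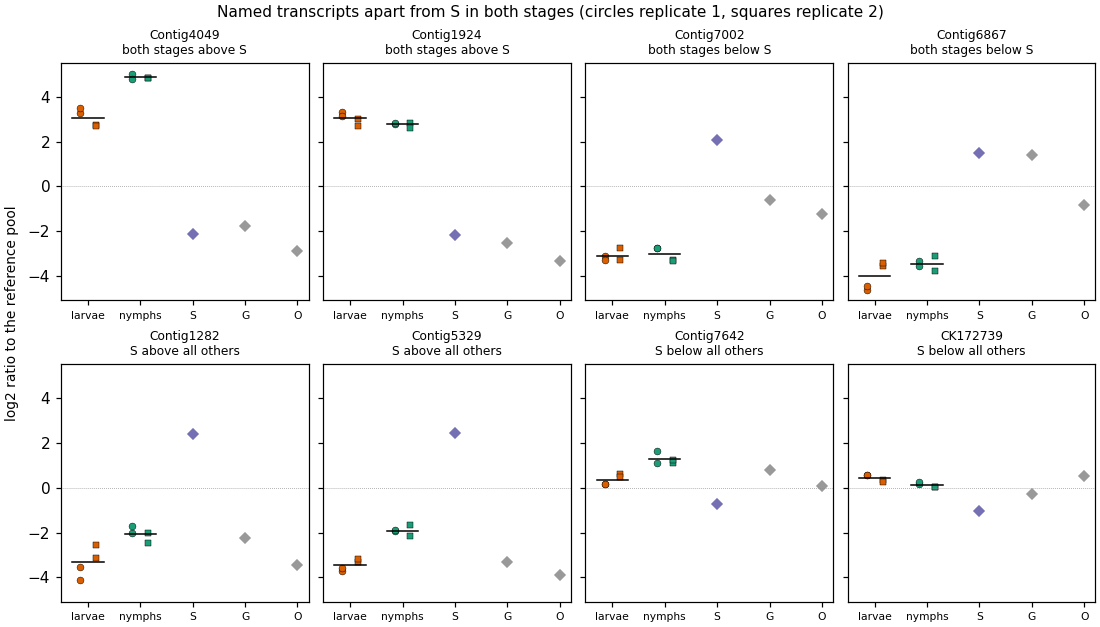
Level on each larva array and nymph array and derived level of S, G and O (y axis, log2 of sample over pool) for the named probes that both stages shared against S. All 8 stage arrays lie above S for Contig4049 and Contig1924 and below S for Contig7002, Contig6867, Contig1282 and Contig5329.

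The limma fit compared larvae with nymphs on the means of the biological replicates, over 9556 members with an array left in every replicate. It called 1049 (11.0%), 513 higher in larvae and 536 higher in nymphs, and the authors' deposited table, which weights each array equally, called 4729 of 10695 (44.2%). Among members above S in both stages, limma called 62 higher in larvae and 41 higher in nymphs out of 425 fitted. Among members below S in both, it called 6 higher in larvae and 30 higher in nymphs out of 565 fitted. The fit rests on 2 replicates a stage. In place of 1049 it called 171 members after larva replicate 1 was left out, 169 after larva replicate 2 and 2734 after nymph replicate 2. For members above S in both stages the calls in either direction then numbered 10, 9 and 145, in place of 103, and for members below S in both they numbered 1, 5 and 99, in place of 36.

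Transcripts above S in larvae alone numbered 392. Their median was 1.58 (log2) for larvae minus S and 0.14 for nymphs minus S in the authors' deposited tables. Median levels were 1.22 in larvae, −0.38 in nymphs and −0.51 in S. Both larva replicates were at least 2-fold above S in 291 of the 362 that had both, against 895 of 10019 members overall. The pattern had required 2-fold on the same arrays, so this count, like those for the other patterns of a single stage below, is a description. The difference of nymphs from S was under 0.5 on the log2 scale in 339 of the 392, and the adjusted p of nymphs lay between 0.05 and 0.10 in 45. Every array used, of both stages, lay above S in 95 of the 392, against 2145 of all 10675 joined. Alone thus says of nymphs only that they did not pass the adjusted p against S. Limma called the difference between the stages in 209 of 334 fitted (62.6%), against 11.0% over all members. Entry to each pattern of a single stage had required the deposited difference between the stages to pass on the same arrays, so a high share was fixed by the rule, here and in the other 3 such patterns, and nothing is read from it. Without larva replicate 1 or 2 it called 68 and 57 of these members.

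Contig5919 had the largest increase of larvae alone among probes with all 8 arrays. Its level was 3.66, 3.52, 2.64 and 2.91 on the larva arrays and −2.39, −1.70, −2.77 and −2.33 on the nymph arrays, against −2.32 in S. No larva array came near a nymph array, and the nymph arrays lay on both sides of S. Larvae were 45.4-fold and nymphs 1.02-fold higher than S in the authors' deposited tables. Larvae exceeded nymphs by 5.48 (log2, SE 0.35; limma, adjusted p = 0.00110).

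Contig5544 lay at 2.57, 2.70, 2.14 and 2.24 on the larva arrays and at −1.68, −2.05, −3.23 and −2.69 on the nymph arrays, against −2.90 in S. The nymph replicates differed by more than 1 on the log2 scale, the larva replicates by less, and nymphs minus S was −0.06 without nymph replicate 1 and 1.04 without nymph replicate 2. Larvae were 39.9-fold higher than S in the authors' deposited table, and larvae exceeded nymphs by 4.83 (log2, SE 0.40; limma, adjusted p = 0.00227).

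Transcripts below S in larvae alone numbered 150. Their median was −1.30 (log2) for larvae minus S and −0.19 for nymphs minus S in the authors' deposited tables, with median levels of −1.31 in larvae, 0.02 in nymphs and 0.11 in S. Both larva replicates were at least 2-fold below S in 111 of 146, against 843 of 10019 members overall. Every array used, of both stages, lay below S in 35 of the 150, against 2467 of all 10675 joined. Limma called the stage difference in 76 of 143 fitted (53.1%, fixed in part by the rule), with 3 calls when larva replicate 1 was left out, 5 when larva replicate 2 was and 121 when nymph replicate 2 was. The median decrease was smaller in size than the median increase of larvae alone.

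Contig1448 lay at −1.61, −1.61, −0.50 and −0.62 on the larva arrays and at 1.46, 1.28, 2.21 and 1.59 on the nymph arrays, against 1.69 in S. The level of S fell among the nymph arrays, while G stood at −1.03 and O at −1.23, near the larvae. Larvae were 6.86-fold lower than S in the authors' deposited table, and the difference between larvae and nymphs was −2.72 (log2, SE 0.40; limma, adjusted p = 0.0116).

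Contig2493 lay at −1.80, −1.87, −1.56 and −1.45 on the larva arrays and at 0.33, 0.51, 0.60 and 0.44 on the nymph arrays, against 1.04 in S. Larvae were 6.55-fold lower than S in the authors' deposited table. The difference between larvae and nymphs was −2.14 (log2, SE 0.23; limma, adjusted p = 0.00519). The calls of both probes were lost without larva replicate 1, and that of Contig2493 also without larva replicate 2.

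Transcripts above S in nymphs alone numbered 356. Their median was 0.08 (log2) for larvae minus S and 1.38 for nymphs minus S in the authors' deposited tables. Median levels were −0.04 in larvae, 1.25 in nymphs and −0.16 in S. Both nymph replicates were at least 2-fold above S in 179 of the 321 that had both, against 757 of 10014 members overall. Larvae differed from S by under 0.5 on the log2 scale in 304 of the 356. Every array used, of both stages, lay above S in 104 of the 356, against 2145 of all 10675 joined. Limma called the stage difference in 154 of 309 fitted (49.8%, fixed in part by the rule), in 21 and 27 without larva replicate 1 or 2, and in 289 without nymph replicate 2. With folds taken without nymph replicate 1 the pattern held 224 members, and without nymph replicate 2 it held 470. The deposited adjusted p-values against S could not be recomputed, since no array of S was analysed here. These counts are therefore no full re-sorting, and they show only that the size depended on which nymph replicate entered the fold.

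Contig1200 lay at −3.77, −3.47, −3.10 and −3.21 on the larva arrays and at 2.85, 2.46, 2.22 and 1.14 on the nymph arrays, against −2.70 in S. All larva arrays were below S and all nymph arrays above the pool. Nymphs were 29.1-fold higher than S in the authors' deposited table. In the authors' deposited table for larvae they were 1.62-fold lower than S, which did not pass the deposited adjusted p. The difference between larvae and nymphs was −5.56 (log2, SE 0.37; limma, adjusted p = 0.00129).

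Contig5341 lay at −0.60, −0.98, −0.93 and −1.55 on the larva arrays and at 3.74, 3.35, 3.86 and 3.09 on the nymph arrays, against −1.33 in S. S lay within the range of the larva arrays. Nymphs were 28.6-fold higher than S in the authors' deposited table, and the difference between larvae and nymphs was −4.53 (log2, SE 0.25; limma, adjusted p = 0.000959).

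Transcripts below S in nymphs alone numbered 151. Their median was −0.17 (log2) for larvae minus S and −1.22 for nymphs minus S in the authors' deposited tables, with median levels of 0.28 in larvae, −0.89 in nymphs and 0.38 in S. Only 64 of the 151 had all 8 arrays, a share of 42.4% against 60.9% of all members. Both nymph replicates were at least 2-fold below S in 72 of 129, against 676 of 10014 members overall. Every array used, of both stages, lay below S in 58 of the 150 that were joined, against 2467 of all 10675 joined. Limma called the stage difference in 46 of 119 fitted (38.7%, fixed in part by the rule), with 3 calls when larva replicate 1 was left out, 1 when larva replicate 2 was and 81 when nymph replicate 2 was.

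Contig2387 lay at −0.65, −0.73, −1.52 and −2.15 on the larva arrays and at −3.49, −3.57, −3.99 and −3.76 on the nymph arrays, against −1.18 in S. S lay between the 2 larva replicates, and O stood higher than both stages and S at 1.27. Nymphs were 5.76-fold lower than S in the authors' deposited table, and larvae exceeded nymphs by 2.44 (log2, SE 0.40; limma, adjusted p = 0.0173).

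CV448525 lay at 0.57, 0.56, −0.23 and 0.08 on the larva arrays and at −1.47, −1.57, −1.68 and −1.34 on the nymph arrays, against 0.91 in S. Nymphs were 5.35-fold lower than S in the authors' deposited table. Larvae exceeded nymphs by 1.76 (log2, SE 0.28; limma, adjusted p = 0.0149). The calls of both probes were lost without larva replicate 1, and that of CV448525 also without larva replicate 2.

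**Figure D3:**
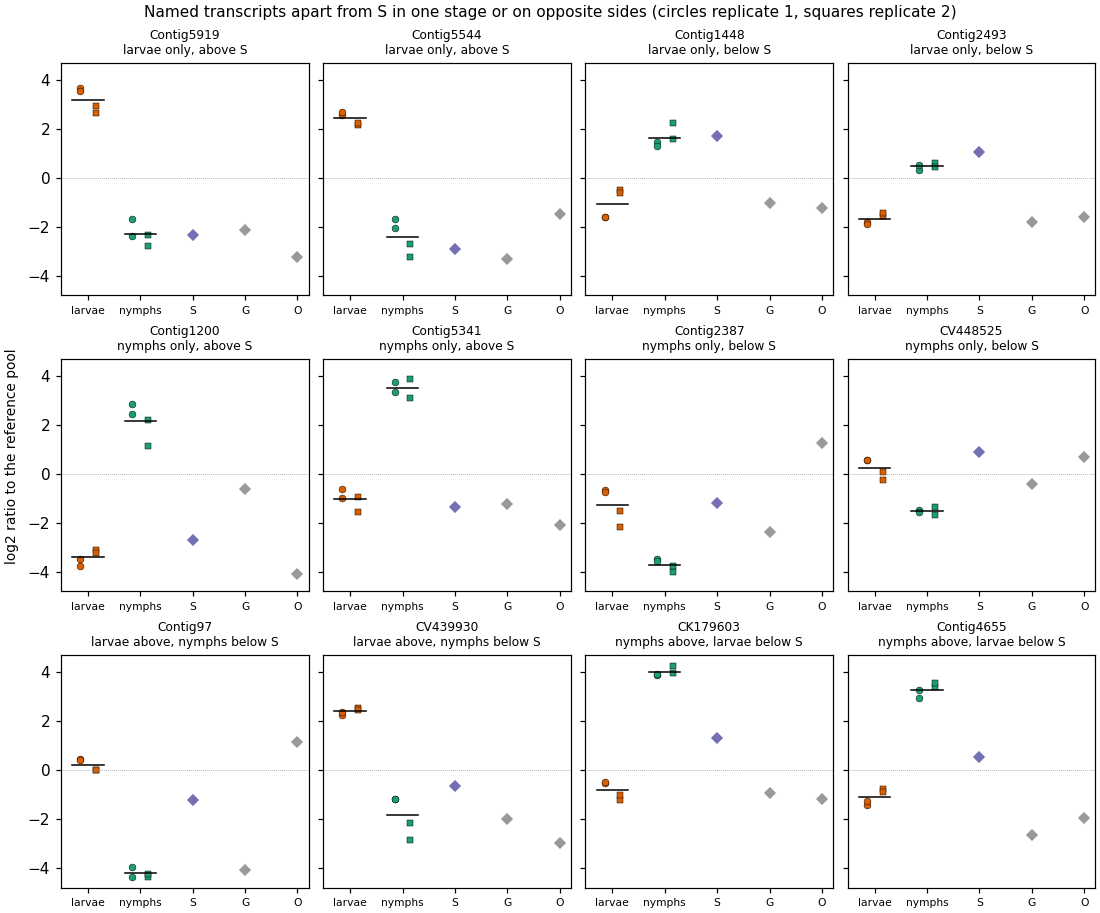
Level on each larva array and nymph array and derived level of S, G and O (y axis, log2 of sample over pool) for the named probes in which a single stage differed from S or the stages lay on opposite sides. Larva and nymph arrays do not overlap for any of the 12 probes, which were picked on these arrays, nor in 44.5% of all joined members. S lies nearer the stage that did not differ, or between the stages for Contig97, CV439930, CK179603 and Contig4655.

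Members on opposite sides of S were few, 32 in all. Contig97 was higher than S in larvae and lower in nymphs. Its level was 0.47, 0.41, −0.01 and 0.02 on the larva arrays and −4.34, −3.93, −4.36 and −4.21 on the nymph arrays, against −1.23 in S. Larvae were 2.73-fold higher and nymphs 7.90-fold lower than S in the authors' deposited tables. Larvae exceeded nymphs by 4.43 (log2, SE 0.25; limma, adjusted p = 0.000959). G stood at −4.06, near the nymphs, and O at 1.145, above the larvae.

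CV439930 had larva levels of 2.24, 2.38, 2.55 and 2.46 and nymph levels of −1.18, −1.16, −2.16 and −2.85, against −0.65 in S. Larvae were 8.36-fold higher and nymphs 2.27-fold lower than S in the authors' deposited tables. The larva values were tight and the nymph replicates differed by over 1 on the log2 scale. Larvae exceeded nymphs by 4.25 (log2, SE 0.44; limma, adjusted p = 0.00450), a call lost without larva replicate 1 or 2. Without nymph replicate 2, nymphs minus S was −0.51, under the 2-fold of the pattern.

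CK179603 ran the other way, at −0.51, −0.48, −1.21 and −1.01 on the larva arrays and 3.90, 3.94, 4.25 and 3.98 on the nymph arrays, against 1.33 in S. Larvae were 4.40-fold lower and nymphs 6.43-fold higher than S in the authors' deposited tables. The difference between larvae and nymphs was −4.82 (log2, SE 0.28; limma, adjusted p = 0.00103). G at −0.91 and O at −1.19 stood with the larvae.

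Contig4655 lay at −1.43, −1.25, −0.79 and −0.88 on the larva arrays and at 2.95, 3.26, 3.39 and 3.55 on the nymph arrays, against 0.53 in S. Larvae were 3.07-fold lower and nymphs 6.76-fold higher than S in the authors' deposited tables. The difference between larvae and nymphs was −4.37 (log2, SE 0.28; limma, adjusted p = 0.00110).

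The levels of G and O placed S among the coded groups. Like that of S, they were derived from the authors' deposited tables as values with no error, and these differences were not tested. Among the 587 members below S in both stages, S was at least 2-fold above G in 333, within 2-fold in 243 and at least 2-fold below G in 11. Against O the same members split, with S at least 2-fold above in 212, within 2-fold in 150 and at least 2-fold below in 225. The median level was 0.39 in S, −0.82 in G and 0.44 in O. Among the 468 members above S in both stages, S was at least 2-fold below G in 128 and at least 2-fold below O in 12, and at least 2-fold above O in 218. Their median level was −1.05 in S, −0.78 in G and −2.02 in O. Over all 10695 members, S was at least 2-fold above G in 1103 and below G in 781, and at least 2-fold above O in 1878 and below O in 1503. The patterns were chosen for a high or a low S, so nothing particular to them is read from these counts.

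**Figure D4:**
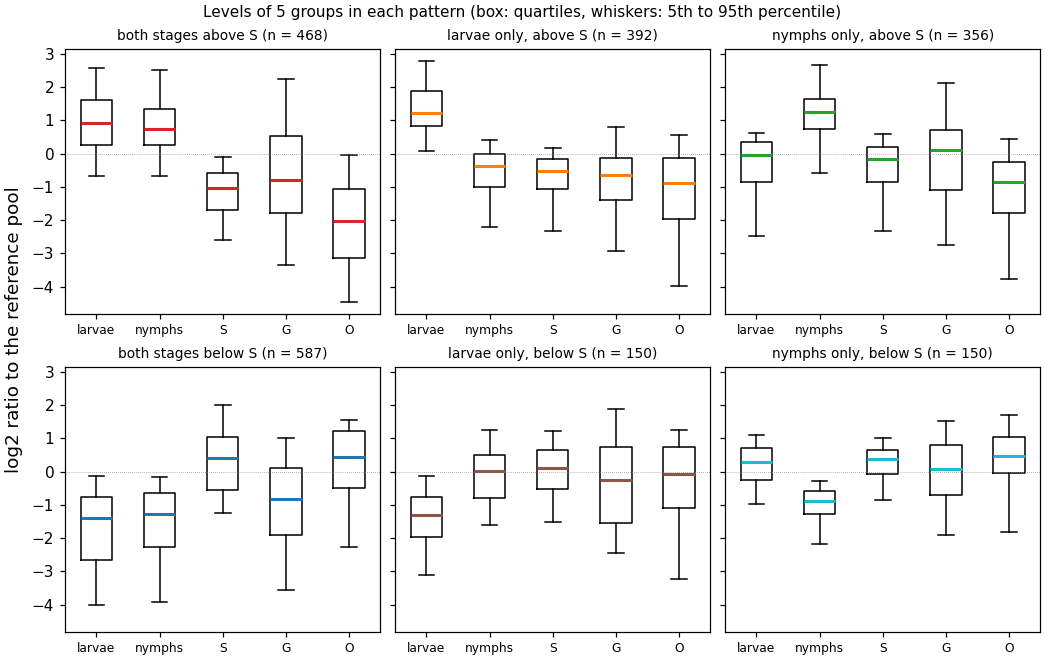
Levels (y axis, log2 of sample over pool) of larvae, nymphs, S, G and O over the joined members of the shared and single-stage patterns. Boxes show medians and quartiles, and the patterns on opposite sides of S are not drawn. In the pattern above S in both stages the medians were 0.93 in larvae, 0.74 in nymphs and −1.05 in S. In the pattern below S in both they were −1.41, −1.27 and 0.39, with O at 0.44.

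S was at least 2-fold above larvae, nymphs, G and O in 138 of the shared members, at least 4-fold in 48 and at least 8-fold in 14. Over all 10695 members, S was at least 2-fold above both G and O in 570 and at least 2-fold below both in 105. More members with S high than with S low were thus found there too. S was at least 2-fold below all 4 in 2 shared members, CV456519 and Contig5385, which were picked out after their values were seen. For CV456519, with 7 arrays used, larvae were 3.14-fold and nymphs 3.91-fold higher than S in the authors' deposited tables. S was 10.4-fold below G and 2.35-fold below O. For Contig5385, with 6 arrays used, larvae were 2.23-fold and nymphs 2.87-fold higher than S in the authors' deposited tables. S was 15.2-fold below G and 2.11-fold below O. The nymph arrays used for Contig5385 lay at −0.02 and −0.14 and those left out at −0.92 and −0.88, against −1.60 in S.

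Contig1282 and Contig5329 stood furthest above all 4. Contig1282 lay at −3.52, −4.10, −2.56 and −3.12 on the larva arrays and at −2.04, −1.73, −2.03 and −2.48 on the nymph arrays, against 2.41 in S, −2.25 in G and −3.43 in O. S alone was above the pool. Larvae were 53.3-fold and nymphs 22.3-fold lower than S in the authors' deposited tables, and the difference of −1.26 between larvae and nymphs (log2, SE 0.37) did not pass the test (limma, adjusted p = 0.0830).

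Contig5329 lay at −3.72, −3.61, −3.32 and −3.18 on the larva arrays and at −1.91, −1.90, −1.67 and −2.17 on the nymph arrays, against 2.45 in S, −3.31 in G and −3.90 in O. Larvae were 59.9-fold and nymphs 20.5-fold lower than S in the authors' deposited tables. Larvae lay below nymphs by −1.54 (log2, SE 0.24; limma, adjusted p = 0.0141), a call lost without larva replicate 1 or 2.

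With all 8 arrays used, Contig7642 and CK172739 stood furthest below all 4 groups, at smaller distances. Contig7642 lay at 0.17, 0.16, 0.63 and 0.48 on the larva arrays and at 1.63, 1.13, 1.09 and 1.22 on the nymph arrays, against −0.72 in S. CK172739 lay at 0.59, 0.57, 0.35 and 0.28 on the larva arrays and at 0.18, 0.24, 0.02 and 0.01 on the nymph arrays, against −1.06 in S. Every stage array was above S for both. Without larva replicate 2, larvae minus S of Contig7642 was 0.89, under 2-fold. The smallest of the 4 folds was 1.75 for Contig7642 and 1.73 for CK172739.

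The 2 contigs with a gene word in the name and a value here showed small differences. Contig2438_TBP_TATA carries the name of the TATA-binding protein, a general transcription factor. The authors' deposited tables, made with limma per the submitters' processing notes, put larvae minus S at 0.39 (adjusted p = 0.0142) and nymphs minus S at −0.29 (adjusted p = 0.0829). Contig803_RiboL4 carries the name of ribosomal protein L4, a part of the large ribosomal subunit. The same limma results in the authors' deposited tables put larvae minus S at −0.51 (adjusted p = 0.000706) and nymphs minus S at −0.28 (adjusted p = 0.0409). Neither reached 2-fold in either stage.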

How the data were processed

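RNA of larvae and nymphs was hybridised against a common pool. The deposited value table holds log2 ratios of sample over pool, and the authors' comparison tables give each probe's log2 fold change, linear fold and adjusted p-value, per the file headers. Limma is named in the submitters' processing notes. How spots were scanned, corrected for background, normalised and filtered is not given in the sources used here, and spot intensities were not analysed here. The small number of arrays limits the precision.

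Probes were joined to rows of the value table by value: the deposited larvae minus nymph value had to equal the difference of array means of exactly 1 feature within 1.2e-09. This joined 10675 of 10695 members, 6516 with all 8 arrays. When the values were shifted, 21 to 29 matched by chance. On each array, between 585 and 1492 probes had not entered the deposited value, read here as spots the authors left out. The deposited fold changes weight technical repeats as separate arrays, and the deposited p-values may therefore treat them as independent.

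Larvae minus nymphs was fitted with limma 3.58.1 in R 4.3.3 on the means of technical repeats, with left-out spots missing, Benjamini-Hochberg adjustment over 9556 members and a threshold of 0.05. The other 1139 members lacked a replicate or were not joined. The script was tested on simulated data. Labels call the biological replicates only that, so the p-values cover only the spread between these samples, which may be technical. The smallest p of an exact permutation test with 2 replicates a stage is 0.333. Replicates correlated at r = 0.917 in larvae and 0.822 in nymphs across probes. Same-numbered replicates of the stages did not deviate together (r = −0.05), and the labels do not tie them, so no block was used.

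Named probes were taken from those with all 8 arrays. They were the 2 with the largest difference in each direction of each pattern (the largest smaller difference where both stages count), and the 2 at each end where S stood apart from all other groups. Contigs with a gene word were added whatever their arrays, and Contig2438_TBP_TATA had 7. CV456519 and Contig5385 were named outside this rule, with fewer than 8 arrays. The members, patterns and the rule for named probes were chosen with earlier results of these data known. Gene and marker lists could not be applied, because no probe name was paired with a gene. Alternatives were other thresholds, members with all arrays, other treatments of arrays, and leaving out each replicate. Python 3.11.15 with numpy 2.4.6, pandas 2.3.3 and matplotlib 3.10.9 was used for the remaining steps.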

Additional observations from a re-analysis of the deposited data

Results flagged for a closer look

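For the 12 named probes of a single stage or of opposite sides, the difference from S in larvae was not that in nymphs. The test was limma on larvae minus nymphs, in which S cancels. Contig4049 and Contig5329, apart from S in both stages, also passed it, at −1.83 and −1.54. The probes below are the 12. The same arrays had placed these probes in their patterns. Larvae exceeded nymphs on the log2 scale by 5.48 for Contig5919 and 4.83 for Contig5544, which were above S in larvae alone, by 2.44 for Contig2387 and 1.76 for CV448525, which were below S in nymphs alone, and by 4.43 for Contig97 and 4.25 for CV439930, with larvae above and nymphs below S. Larvae minus nymphs was −2.72 for Contig1448 and −2.14 for Contig2493, which were below S in larvae alone, −5.56 for Contig1200 and −4.53 for Contig5341, which were above S in nymphs alone, and −4.82 for CK179603 and −4.37 for Contig4655, with nymphs above and larvae below S. Larva and nymph arrays did not overlap for any of the 12. The probes had been picked for large differences on these arrays. Over all joined members, 44.5% showed no overlap, so nothing is read from it.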

How the results depend on the processing

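With no minimum fold, 1310 members were above S in both stages and 1793 below, 926 and 575 above and below S in larvae alone, 767 and 569 above and below S in nymphs alone, and 254 on opposite sides. At a minimum of 4-fold these counts were 103, 143, 136, 17, 66, 7 and 4. With members measured on all 8 arrays only, 311 were above S in both stages, 214 above S in larvae alone, 198 above and 64 below S in nymphs alone, and 14 on opposite sides. Leaving out 1 replicate, between 224 and 470 members were above S in nymphs alone. The deposited adjusted p-values against S could not be recomputed for this, since no array of S was analysed here. The limma count of 1049 became 356 (167 higher in larvae, 189 higher in nymphs) at an adjusted p under 0.01. It was 3367 (1648 and 1719) when each array counted as independent. A random block for each biological replicate gave 2009 (981 and 1028). A fit over all 13459 features of the value table called 3793, 3002 of them higher in larvae. That fit took in features outside the 9556 members and put left-out spots back, so its count cannot be set against 1049. Among joined members in no pattern it called 779 of 8540 (9.12%), against 397 of 7633 (5.20%) in the fit of the 9556. Leaving out 1 replicate gave 169 to 2734 calls, 87 to 1287 higher in larvae and 66 to 1447 higher in nymphs. With the replicate block the limma count of members was 1015 (486 and 529), with each array centred on its median 1025 (442 and 583) and after quantile normalisation 1149 (524 and 625). The causes were not tested. For larvae minus nymphs, the named probes kept direction and side of the threshold in 196 of their alternatives, lost the call in 13 and gained it in 8. Contig7002, which was not called, changed sign in 3, at 0.25 after quantile normalisation, 0.0024 without larva replicate 1 and 0.20 without nymph replicate 1, and it was −0.37 without nymph replicate 2. Of 88 values of a named probe's stage minus S with 1 replicate left out, 4 changed sign, all in the stage not called: nymphs minus S was −0.23 for Contig5919, −0.06 for Contig5544 and 0.20 for Contig1448 without nymph replicate 1, and larvae minus S was 0.48 for Contig2387 without larva replicate 2. A further 2 fell under 2-fold, CV439930 in nymphs at −0.51 without nymph replicate 2 and Contig7642 in larvae at 0.89 without larva replicate 2. Without nymph replicate 2, Contig5544 in nymphs reached 1.04. Limits: S has no error here, 2 replicates a stage decide every limma call, signal over background is unknown, and dye bias was not examined.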

Other observations

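A further check used the contigs that carry a probe A and a probe B. Both had a value for 58 contigs, and in the authors' deposited tables the median gap between A and B (log2) was 0.965 for larvae minus S and 0.748 for nymphs minus S. Both probes fell in the same pattern, or both in none, in 34 of the 58. Over all members 80.0% fell in no pattern, so many pairs would match in none, and no agreement of A and B is read from this count. Whether A and B target the same transcript is not stated in the sources used here.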
